A study of Homo sapiens with 3 samples.

Results

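Genes of protein folding, translocation and degradation in the endoplasmic reticulum (ER) were followed in HT29 cells that carried a miR-146a construct or an empty vector. The set holds 32 genes chosen by name. Every probe set that the platform annotation pairs with exactly 1 of these genes was taken, which gave 80 probe sets of 31 genes, out of 41091 probe sets of 19775 genes in the series. SYVN1, the ubiquitin ligase of ER-associated degradation, had no probe set of its own under this rule. HT29 is a long-established cell line derived from a human colorectal adenocarcinoma. The control group was 1 array of cells transduced with the empty lentiviral vector, and the treated group was 2 arrays of cells transduced with the miR-146a expression construct. Both groups therefore went through lentiviral transduction, and both grew in the same serum-containing medium. The sources used here give neither the promoter of the construct nor whether each line was a pool or a clone. Nothing in the labels tells whether the 2 treated arrays stand for separate cultures, so every p-value rests on a spread that may be technical.

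miR-146a is best known as a microRNA that limits inflammatory signalling. Its mature 5p and 3p strands from RefSeq (GRCh38.p14, the plus strand of chromosome 5) are shown with the seed, bases 2 to 8, in capitals, because they are the agent that separates the groups.
hsa-miR-146a-5p, chr5:160485372-160485393: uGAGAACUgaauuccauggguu
hsa-miR-146a-3p, chr5:160485408-160485429: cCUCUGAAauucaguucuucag

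Proteins of the secretory pathway enter the ER through the SEC61 channel, fold there with the help of the chaperone BiP (HSPA5), the lectins calnexin and calreticulin and the protein disulphide isomerases, and are sent back to the cytosol for destruction when folding fails. When unfolded proteins build up, the sensors IRE1 (ERN1), ATF6 and PERK (EIF2AK3) start the unfolded protein response, which raises the transcription of many chaperone and degradation genes. Colon epithelium relies on this system for the output of mucus and other secreted proteins.

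All values are the authors' log2 values, so a difference of 0.263 is a 1.2-fold difference. Over the 12444 genes above a filter on low signal (a log2 value of 5.13, the median of all probe sets that are not controls), replicate 1 minus replicate 2 of miR-146a had an SD of 0.11, and the replicates minus the vector had SDs of 0.20 and 0.19. Of 10 markers of colon epithelium 9 lay above the filter, GPA33 being the exception, against 2 of 5 for fibroblasts, 2 of 4 measured for leukocytes and 1 of 4 for endothelium. Control probe sets at the 5′ end of ACTB and GAPDH gave lower values with miR-146a than with the vector in both replicates (by -0.29 and -0.18 for ACTB, and by -0.32 and -0.30 for GAPDH), while their 3′ probe sets differed by -0.03 to 0.05. The part of this 5′ shift in the ER values below was not tested.

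The ER genes stayed close to the vector, and more of them lay below it than above. With 1 probe set per gene (the one with the highest average signal), all 31 measured genes passed the filter, 16 (51.6%) lay below the vector in both replicates and 6 (19.4%) above it in both. Of all genes tested, 28.8% were lower in both arrays and 40.2% were higher in both. The median log2 difference of the ER genes was -0.03, against 0.015 over all genes tested. With the mean of a gene's probe sets in place of its brightest, the ER median was -0.07 (all genes 0.0079), with 19 lower and 7 higher in both replicates, against 34.9% and 40.8% of the 11038 genes whose mean passed the filter. With the mean of only those above the filter it was -0.07 again (all genes 0.0089), with 20 lower and 6 higher, against 33.3% and 40.1%. Only SEL1L differed by at least 1.2-fold in both arrays, on the lower side, where 2.9% of all genes did; no ER gene was 1.2-fold higher in both arrays, against 5.97% of all genes. The differences ranged from -0.33 for SEL1L to 0.19 for CALR.

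No ER gene passed limma at an adjusted p of 0.05 in either direction, and neither did any of the 12444 genes (0% called higher and 0% lower). At an unadjusted p under 0.05 limma had 2 ER genes higher (CALR and HYOU1) and 4 lower (HERPUD1, HSPA5, ATF6 and DNAJB11), against 14.6% and 9% of all genes. With a variance prior taken only from genes whose replicates are not exactly equal, 0 of the 31 passed, while 4.76% of all genes passed as higher and 2.36% as lower. With a robust prior 1 passed as lower, HSPA5, against 1.62% of all genes, and 0 as higher, against 3.48%. These tests have 1 residual degree of freedom and take the single vector array to vary like the miR-146a arrays.

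**Figure D1:**
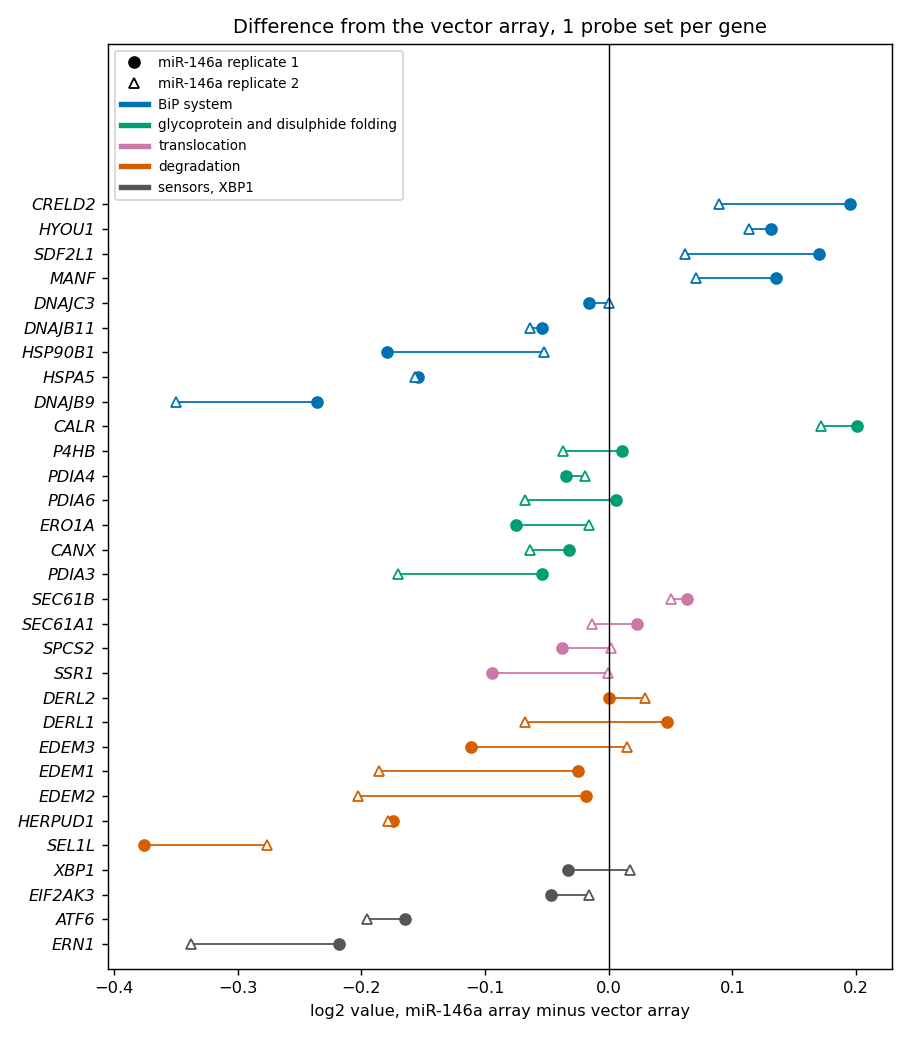
Log2 difference from the vector array (horizontal axis) for the probe set used of each of the 31 ER genes, ordered within 5 roles; filled circles are miR-146a replicate 1, open triangles replicate 2, and the line joins them. The points of SEL1L, DNAJB9 and ERN1 lie farthest to the left, and those of CALR, CRELD2, HYOU1, SDF2L1 and MANF lie to the right of 0.

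The BiP system was split. HSPA5, BiP itself, read 12.57 with the vector and 12.42 and 12.42 with miR-146a (probe set 211936_at). Both miR-146a values lay below the vector, a 1.11-fold difference (-0.16, SE 0.0076, limma adjusted p = 0.118, or adjusted p = 0.0471 with the robust prior). The very small SE comes with 2 nearly equal replicates (SD 0.0014, n = 2). The other HSPA5 probe set, 230031_at, went the opposite way, at 0.20, and the mean of both was 0.022.

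DNAJB9, a J-domain partner of BiP that also restrains IRE1, read 8.69 with the vector and 8.46 and 8.34 with miR-146a. This was a 1.22-fold lower value (limma adjusted p = 0.294), and its 2 other probe sets were lower in both arrays too, by -0.37 and -0.49. In the first of these (average signal 5.97) the replicates disagreed, at -0.19 and -0.55. DNAJB11, a J-domain protein that binds unfolded clients, read 10.32 against 10.26 and 10.25, a difference of -0.06 (limma adjusted p = 0.21). DNAJC3, which also works with BiP, differed by -0.01 in the probe set used, with replicate 2 exactly at the vector value, while its 3 other probe sets lay between -0.28 and -0.05.

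HSP90B1, the ER form of HSP90, read 10.58 with the vector and 10.40 and 10.53 with miR-146a. Its difference of -0.12 (limma adjusted p = 0.607) varied between the replicates (SD 0.09, n = 2). HSP90B1 was read only through 2 probe sets of the type that can pick up near-identical transcripts (the _x_at suffix), so its values are uncertain; the other one differed by -0.42.

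On the higher side stood 4 luminal proteins, each with a single probe set. HYOU1, a nucleotide exchange factor for BiP, read 10.93 with the vector and 11.07 and 11.05 with miR-146a. CRELD2, a stress-induced luminal protein, read 9.07 against 9.27 and 9.16. SDF2L1, which forms a complex with DNAJB11, read 8.66 against 8.84 and 8.73. MANF, a secreted protein that binds BiP, read 9.78 against 9.91 and 9.85. All 8 of these miR-146a values were above the vector, with mean differences of 0.12, 0.14, 0.12 and 0.10 in that order. None passed limma (adjusted p = 0.165, 0.474, 0.549 and 0.422). In the chaperone group as a whole 4 of 9 were above the vector in both arrays, 4 below in both and DNAJC3 was neither. These are 44.4% each, against 40.2% above and 28.8% below for all genes tested.

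Among the lectins and disulphide isomerases, calreticulin stood apart from the rest. CALR, a calcium-binding lectin that holds newly made glycoproteins, read 10.40 with the vector and 10.60 and 10.57 with miR-146a. It was 1.14-fold higher (0.19, SE 0.02, limma adjusted p = 0.163), and its 2 other probe sets were also higher in both arrays, at 0.20 and 0.33. The CALR probe set used and the one at 0.33 are of the _x_at type as well, so they share the uncertainty given for HSP90B1; the one at 0.20 is not. CALR was the only gene of this group of 7 above the vector in both arrays, and 4 lay below in both. The shares over all genes tested were 40.2% above and 28.8% below.

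Calnexin (CANX), its membrane-bound counterpart, read 12.55 with the vector and 12.52 and 12.49 with miR-146a, a difference of -0.05. Probe sets of CANX disagreed: 208852_s_at read 10.84 against 10.44 and 10.45, and 208853_s_at read 9.44 against 8.91 and 9.02, whereas a further one differed by 0.04. Depending on the probe set, CANX therefore lay near the vector or up to 1.39-fold below it.

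PDIA3, the isomerase that works with both lectins, read 12.27 with the vector and 12.22 and 12.10 with miR-146a, and its other probe sets differed by 0.00 and 0.01. P4HB, the archetypal disulphide isomerase, differed by -0.01 in the probe set used. A further P4HB probe set, 1564494_s_at, read 8.70 against 8.18 and 8.20, which is 1.42-fold lower. PDIA4 and PDIA6 differed by -0.03 each, with other probe sets from -0.12 to 0.05. The PDIA6 probe set used is of the _x_at type too. ERO1A, the oxidase that recharges the isomerases, differed by -0.05, and its 222646_s_at probe set by -0.32, with nearly equal replicates.

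The 4 genes of translocation lay between -0.05 and 0.06 of the vector in the probe sets used. SEC61B, a subunit of the channel, read 11.19 with the vector and 11.25 and 11.24 with miR-146a, a difference of 0.06 (limma adjusted p = 0.238). SEC61A1, which forms the pore, differed by 0.0046 in the probe set used, with replicates on either side of the vector. Its 222385_x_at probe set was 1.30-fold lower (7.26 against 6.74 and 7.02). SPCS2, a signal peptidase subunit, differed by -0.02, and SSR1, of the translocon-associated complex, by -0.05. All 6 probe sets of SSR1 had mean differences below 0, from -0.24 to -0.01.

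Among the degradation genes 4 of 7 measured (57.1%) were lower in both arrays and none was higher in both. Of all genes tested, 28.8% were lower and 40.2% higher in both. SEL1L, the adaptor that brings substrates to SYVN1, read 8.41 with the vector and 8.04 and 8.14 with miR-146a (probe set 202061_s_at). Both miR-146a values lay below the vector by more than the replicates differed from each other, and the difference was 1.25-fold (-0.33, SE 0.07, limma adjusted p = 0.247). The 95% interval of this fit was -0.73 to 0.08 and so included 0. With the prior from unequal replicates the limma adjusted p of SEL1L was 0.0508, with a 95% interval of -0.52 to -0.13. Neither interval was adjusted for the number of genes. The other 2 SEL1L probe sets above the filter were also lower on average, at -0.11 and -0.46, the first with replicate 1 exactly at the vector value. The second lay near the filter (average signal 5.42), and its replicates disagreed, at -0.15 and -0.76.

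HERPUD1, a membrane protein of the degradation complex and a known target of the unfolded protein response, read 9.73 with the vector and 9.56 and 9.56 with miR-146a. This 1.13-fold lower value had nearly equal replicates (SE 0.0081, limma adjusted p = 0.118), and the other HERPUD1 probe set differed by 0.07 in the opposite direction. That other probe set lay near the filter (average signal 5.28), with replicate 2 exactly at the vector value. EDEM1 and EDEM2, which mark misfolded glycoproteins by mannose trimming, differed by -0.11 each, but the replicates disagreed, with -0.02 for both genes in replicate 1 and -0.19 and -0.20 in replicate 2. EDEM3 differed by -0.05 in the probe set used and by -0.56 in 220342_x_at (6.78 against 6.25 and 6.19). The derlins, which help move substrates out of the ER, lay near the vector in the probe sets used, where DERL1 differed by -0.01 and DERL2 by 0.01. The 3 other DERL1 probe sets differed by -0.17, -0.15 and 0.06, the first pair of them lower in both arrays.

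Of the stress sensors, ERN1 and ATF6 read lower while EIF2AK3 and the transcription factor XBP1 lay near the vector in the probe sets used. ERN1, the kinase and endoribonuclease IRE1, read 7.12 with the vector and 6.90 and 6.78 with miR-146a, a 1.21-fold lower value (limma adjusted p = 0.314). All 3 of its probe sets were lower in both arrays, within a narrow range of -0.28 to -0.19. The dimmest, 207061_at, lay at the filter (average signal 5.15), with miR-146a values of 5.01 and 5.10 below it. ATF6, a membrane-bound transcription factor released by proteolysis, read 8.49 against 8.33 and 8.29 (-0.18, limma adjusted p = 0.171). All 4 ATF6 probe sets were lower in both arrays, from -0.45 to -0.09.

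EIF2AK3, the kinase PERK, read 7.47 with the vector and 7.42 and 7.45 with miR-146a. XBP1, whose messenger RNA is spliced by IRE1, read 8.88 against 8.84 and 8.89, on either side of the vector. The XBP1 difference of -0.01 had a 95% interval of -0.20 to 0.18 with the prior from unequal replicates. The values are for total XBP1 transcript and do not measure its splicing.

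**Figure D2:**
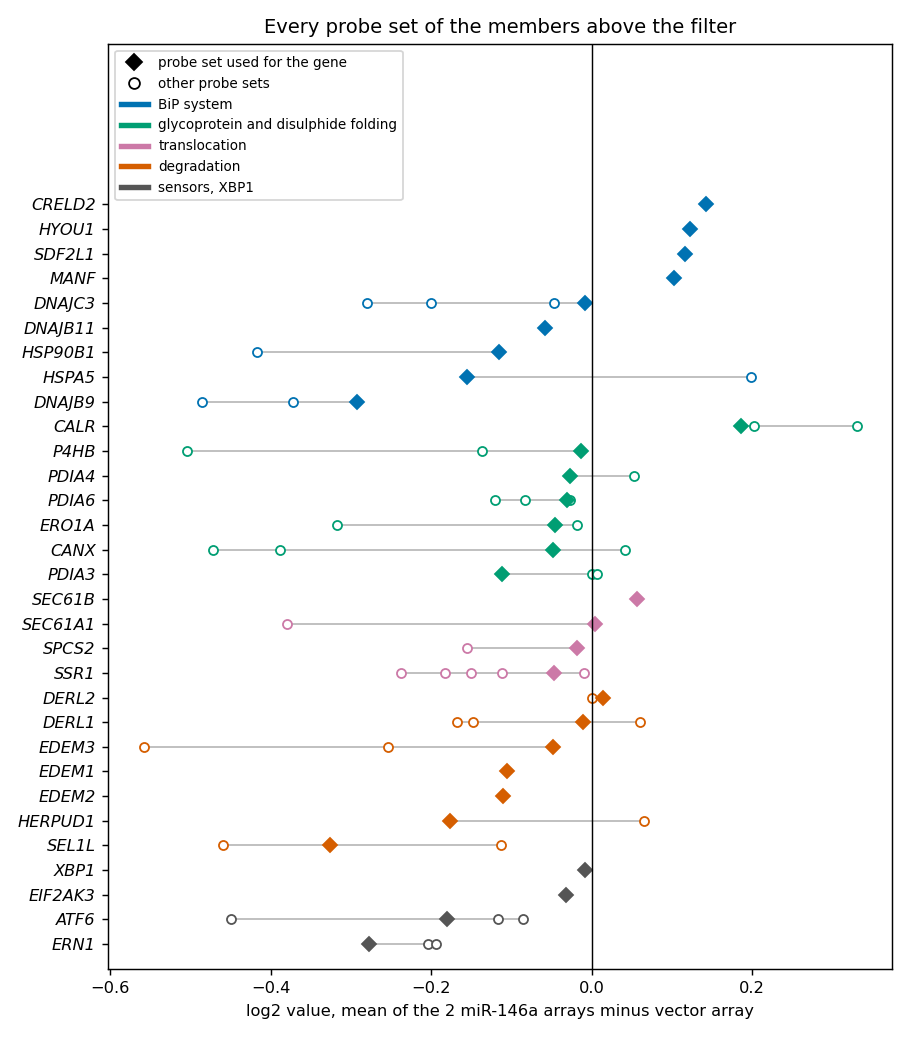
Mean log2 difference of the 2 miR-146a arrays from the vector array (horizontal axis) for all 74 probe sets above the filter, by gene; diamonds mark the probe set used for the gene, open circles its other probe sets, and grey lines their range. Many open circles lie to the left of their diamond, as for CANX, P4HB, EDEM3 and SEC61A1, and HSPA5 has a probe set on each side of 0.

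Lower values also prevailed when all probe sets were counted. Of the 80 ER probe sets 74 lay above the filter, and of these 45 (60.8%) lay below the vector in both replicates and 11 (14.9%) above it in both, where 32.6% and 36.7% of all 22580 such probe sets did so. Their median difference was -0.10, against 0.0010 over all. At least 1.2-fold lower in both arrays were 9 ER probe sets, against 5.53% of all, and 0 were 1.2-fold higher, against 5.51%. The 43 ER probe sets that were not the brightest of their gene had 29 lower in both and 5 higher in both, against 37.2% and 32.4% of all probe sets of that kind. By role, 8 of the 9 probe sets of sensors and XBP1, 7 of 11 of translocation, 10 of 16 of the BiP system, 9 of 16 of degradation and 11 of 22 of the lectins and isomerases were lower in both arrays. Probe sets of a gene share their transcript and are not replicates.

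Limma on every probe set separately called 0 ER probe sets. With the prior from unequal replicates it called 8 lower (10.8% of 74, against 4.68% of all probe sets) and 0 higher (against 4.44%). The 8 were 1 each of EDEM3 (adjusted p = 0.00221), P4HB (adjusted p = 0.00388), DNAJB9 (adjusted p = 0.0102), ATF6 (adjusted p = 0.011), HSP90B1 (adjusted p = 0.0151) and SEC61A1 (adjusted p = 0.0498), and both lower CANX probe sets (adjusted p = 0.00709 and 0.0189). Those called for EDEM3, HSP90B1 and SEC61A1 are of the _x_at type, so they share the uncertainty given for HSP90B1. All 8 were among the 43 probe sets that were not the brightest of their gene (18.6% of these, against 7.47% of all such probe sets called lower and 4.09% called higher). Of the 31 brightest, 0 were called, against 2.4% of all brightest probe sets called lower and 4.72% called higher. Of the 21 genes with more than 1 probe set above the filter, 10 had probe sets that differed by over 0.25 from each other, and 3 (HSPA5, PDIA4 and DERL1) had probe sets lower in both arrays beside others higher in both. Beside these values stand the lower 5′ control readings of ACTB and GAPDH, by -0.18 to -0.32, and the position of each ER probe set along its transcript was not used here.

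**Figure D3:**
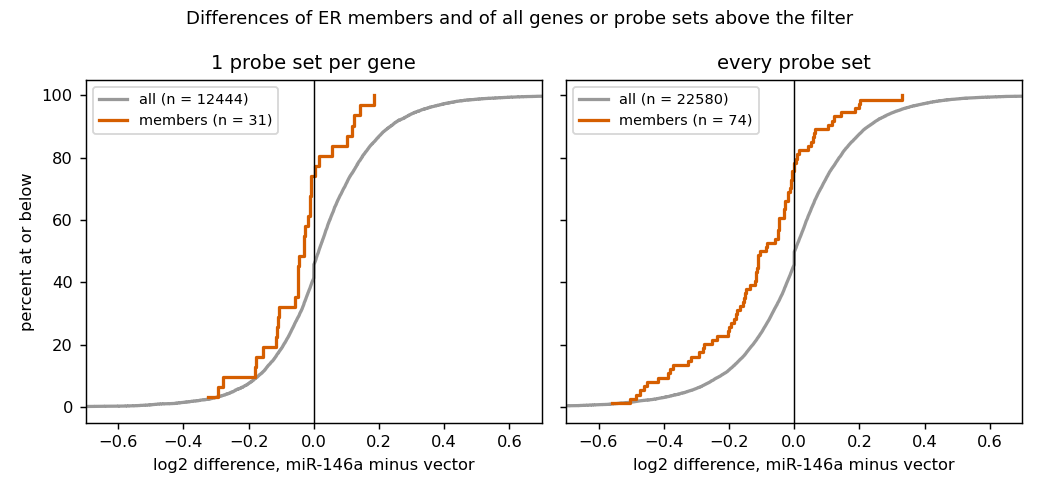
Cumulative share (vertical axis, percent) of genes, left, and probe sets, right, at or below a given log2 difference between miR-146a and vector (horizontal axis, cut at 0.7 on each side); orange is the ER set and grey all genes or probe sets above the filter. The orange curve lies left of the grey one at the median in both panels (-0.03 against 0.015 for genes and -0.10 against 0.0010 for probe sets), and ends near 0.2 for genes.

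Promoters of this set were searched for ER stress response elements, the sites through which the unfolded protein response acts on many of them, to set genes with a shared element side by side. The windows run from 250 bases before to 50 after the annotated start (RefSeq, GRCh38.p14), and 30 of the 32 genes had such a window. The letters searched, on both strands, were CCAAT, any 9 bases and CCACG (ERSE), ATTGG, any 1 base and CCACG (ERSE-II), and TGACGTGG (UPRE). ERSE was found for 7 ER genes, 23.3% of those with a window, and for 0.0916% of all 27305 genes with a window. ERSE-II was found for 3, or 10%, against 0.0696% of all, and UPRE for 1, HYOU1, against 0.927% of all, where it overlaps an ERSE-II match. The matches are shown with the motif in capitals and 5 bases on each side, in the direction of the gene, so a match on the opposite strand appears reversed and complemented.
HSPA5, chr9:125241386-125241414, minus strand: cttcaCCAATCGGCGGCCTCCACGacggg
HSP90B1, chr12:103930211-103930239, plus strand: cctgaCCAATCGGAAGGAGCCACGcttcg
HSP90B1, chr12:103930316-103930344, plus strand: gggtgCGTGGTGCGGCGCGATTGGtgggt
CRELD2, chr22:49918549-49918577, plus strand: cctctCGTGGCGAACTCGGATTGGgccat
CALR, chr19:12938379-12938407, plus strand: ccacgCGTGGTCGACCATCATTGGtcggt
CANX, chr5:179698773-179698801, plus strand: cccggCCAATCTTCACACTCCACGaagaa
PDIA6, chr2:10812848-10812876, minus strand: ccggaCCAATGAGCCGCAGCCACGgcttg
XBP1, chr22:28800598-28800626, minus strand: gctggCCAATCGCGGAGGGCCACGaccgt
HYOU1, chr11:119057375-119057395, minus strand: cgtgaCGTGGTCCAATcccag
HYOU1, chr11:119057269-119057289, minus strand: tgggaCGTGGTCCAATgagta
SDF2L1, chr22:21642109-21642129, plus strand: ggaagCGTGGACCAATcaaaa
HERPUD1, chr16:56932020-56932040, plus strand: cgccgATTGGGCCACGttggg

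Genes that share an element lay on both sides of the vector. Of the 10 with ERSE or ERSE-II, 4 lay above the vector in both arrays (CALR, HYOU1, CRELD2 and SDF2L1), 4 below in both (HSPA5, HERPUD1, HSP90B1 and CANX) and PDIA6 and XBP1 were neither; their median difference was -0.02, within a range of -0.18 to 0.19. The 19 measured genes with a window and neither element had 2 higher and 11 lower in both arrays, with a median of -0.05. As background to both sets of counts, 40.2% of the 12444 genes lay above the vector by this measure and 28.8% below it. Whether the 10 genes differ from the 19 was not tested. SEL1L, DNAJB9 and ERN1, the 3 lowest genes, are among these 19. Inexact copies of the elements and sites outside the window were not searched for. HSPA5 and CALR are shown at length, as each carries an ERSE match. CALR lay above the vector in all 3 probe sets, while HSPA5 lay below it in the probe set used (-0.16), above it in the other (0.20) and at 0.022 in their mean. The 250 bases before the start of each gene are given with the match in capitals; in HSPA5 it begins at position -66 and in CALR at -225, counted from the annotated start.
HSPA5, chr9:125241344-125241593, minus strand: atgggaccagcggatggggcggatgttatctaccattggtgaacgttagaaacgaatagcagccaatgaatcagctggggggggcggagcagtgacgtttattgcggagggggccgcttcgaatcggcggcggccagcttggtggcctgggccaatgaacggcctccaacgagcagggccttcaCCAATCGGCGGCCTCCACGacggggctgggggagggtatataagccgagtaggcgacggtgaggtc
CALR, chr19:12938359-12938608, plus strand: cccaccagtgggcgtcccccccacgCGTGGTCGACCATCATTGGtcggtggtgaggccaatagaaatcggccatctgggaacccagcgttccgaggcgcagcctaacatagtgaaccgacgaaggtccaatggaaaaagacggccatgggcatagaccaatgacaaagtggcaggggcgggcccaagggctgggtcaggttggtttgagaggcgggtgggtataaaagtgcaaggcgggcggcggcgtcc
A match is a description of the sequence only; no binding or promoter activity was measured.

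Other genes of the ER were also near the vector. Of 71 further genes listed by role, 65 were tested, and 23 lay above and 19 below the vector in both replicates (35.4% and 29.2%, against 40.2% and 28.8% of all genes). None passed limma in either direction. At an unadjusted p under 0.05, 6 of the 65 were higher and 6 lower, where 14.6% and 9% of all genes tested were so. With the prior from unequal replicates 0 passed, against 4.76% of all genes called higher and 2.36% lower. With the robust prior 2 passed as higher and 0 as lower, against 3.48% and 1.62%; the 2 were FKBP2 and SEC62, whose replicates were exactly equal (SD 0.0000, n = 2). None was 1.2-fold apart in both arrays. Their median difference was 0.0025.

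In degradation, RNF139, a ubiquitin ligase of the ER membrane, differed by 0.28, UBE2J2, a ubiquitin-conjugating enzyme, by 0.24, and FAF2, which recruits the segregase VCP, by 0.18. Averaged over their probe sets, UBE2J2 differed by 0.12 (4 probe sets, the lowest at -0.01) and FAF2 by 0.12 (2 probe sets). Of the 15 tested genes of this list 8 (53.3%) lay above the vector in both arrays and 3 (20%) below in both. Of all genes tested, 40.2% lay above and 28.8% below in both. Of the degradation genes described earlier, SEL1L, HERPUD1, EDEM1 and EDEM2 were lower in both arrays, the last pair by only -0.02 in replicate 1. Among genes of disulphide and proline folding, AGR2, an isomerase of mucus-secreting cells, differed by -0.25, ERP44, which retains unfinished proteins, by -0.21, and FKBP2, a prolyl isomerase, by 0.15. The 3 probe sets of ERP44 ranged from -0.21 to -0.01 and averaged -0.09. Genes of glycosylation included OSTC at -0.19 and RPN2 at 0.13, both subunits of the oligosaccharyltransferase complex, and MOGS, the glucosidase that makes the first cut in the glycan, at 0.19.

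In translocation SRP19, of the signal recognition particle, differed by 0.20 and SEC11C, a signal peptidase subunit, by -0.10. SEC62, a partner of the channel, differed by 0.15 in the probe set used, but its 5 probe sets ranged from -0.41 to 0.15 and averaged -0.10. Among signalling genes WFS1, an ER membrane protein, read 8.92 with the vector and 9.14 and 9.10 with miR-146a. DDIT3, the transcription factor CHOP of prolonged ER stress, read 8.95 against 8.76 and 8.78, and CREB3L2, a membrane-bound transcription factor, differed by -0.15. Each of the 5 lists thus held genes above and below the vector, by at most 1.22-fold in the probe sets used.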

How the data were processed

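The 3 Affymetrix arrays were grouped by the transduction in the labels (vector 1, miR-146a 2). The deposited log2 values were made by the authors with RMA, per the submitters' processing notes; its version and any other arrays processed along are not given in the sources used. Exactly equal values were held by 19.3% of probe sets in the 2 miR-146a arrays, and by 16.9% and 18.6% in replicates 1 and 2 paired with the vector. Names come from the platform annotation, with symbols updated by Entrez number; of 54613 probe sets that are not controls, 41091 had 1 gene, 1801 several and 11721 none, and those with several were not used. Each gene was represented by its brightest probe set (by the mean of both group means) and tested with limma 3.58.1 (R 4.3.3; lmFit and eBayes, two-sided, Benjamini-Hochberg over all 12444 genes), after a filter at 5.13. The fit was run on simulated data that held no exactly equal replicates, unlike the deposited values, so that run does not bear on the equal values. Figures used matplotlib 3.10.9.

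The ER genes and lists were chosen with earlier results of these data known. The rule for genes described with all array values took the 14 with the largest difference by the smaller of the 2 array differences and the 4 sensors and transcription factors; SEC61B and CANX, next in that order, were added after their values were seen; of each further ER list up to 3 are named by the same measure. Probe sets other than the one used were singled out after their values were seen. Of the 71 further genes, 65 had a probe set of their own above the filter and were tested; the rest were not analysed here. Protein sequences were not used here, so the planned search for ER retention signals was not run. Alternatives were other ways to join probe sets, other filters, variance priors and normalizations, and leaving out a replicate.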

Additional observations from a re-analysis of the deposited data

How the results depend on the processing

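The number of arrays limits every value, and no detection calls came with them. No paired analysis was possible because the vector group has a single array, and its title carries no replicate number. Counted over every probe set instead of genes, 11 were higher and 45 lower in both arrays, 9 were at least 1.2-fold lower, and the median was -0.10. The robust prior called 1 lower, HSPA5, and every probe set with the prior from unequal replicates, a combination added after the data were seen, called 8 lower. With a single miR-146a array 10 genes were higher in either case and 20 lower, and 1 to 3 were at least 1.2-fold lower. The shares of all genes with a single array were not computed, so these counts have no background here. The ER median was -0.03 with replicate 1 alone and -0.02 with replicate 2 alone, against 0.012 and 0.0000 over all genes tested. No test is possible with a single array per group. Single arrays also turned the sign of 4 genes without replicate 1 (EDEM3 to 0.014, SEC61A1 to -0.014, SPCS2 to 0.0015 and XBP1 to 0.017) and of 3 without replicate 2 (DERL1 to 0.047, P4HB to 0.010 and PDIA6 to 0.0059). The same happened with the mean of all probe sets for EIF2AK3 (0.072), HSPA5 (0.022), PDIA4 (0.013), SEC61A1 (-0.19) and XBP1 (0.051), and with the mean of those above the filter, also added later, for HSPA5 (0.022), PDIA4 (0.013) and SEC61A1 (-0.19). Quantile normalization turned P4HB (0.0020) and SPCS2 (0.0017), and cyclic loess SEC61A1 (-0.0018), all of them near 0. The cause was not tested. No other of the settings run (no filter, percentile 70, intensity trend) moved a count, or turned or called a gene.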
